A study of Mus musculus with 12 samples.

Results

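A set of 9 interferon-inducible genes, 6 GTPases (Igtp, Iigp1, Irgm1, Irgm2, Gbp2 and Gbp3) and 3 antiviral genes (Ifit1, Ifit3 and Isg15), were followed in the left ventricle of mice with pressure overload, infarction or angiotensin II infusion. They were chosen by symbol in the platform annotation, with the brightest probe set standing for each gene, and make up 9 of 11624 genes tested. Of the 9, 8 have a probe set of their own, whereas Isg15 is covered only by a probe set listed for both Isg15 and Gm9706, whose signal cannot be assigned to either gene alone and is written Isg15/Gm9706.

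Total RNA from left ventricles of Balb/c mice aged 6 to 8 weeks was measured on 12 Affymetrix arrays, each of which is a group of its own (n = 1). Transverse aortic constriction (TAC, a pressure overload) was sampled at 1 day, 1 week and 1 month, each with a sham-operated control of the TAC series at the same time. Coronary ligation (MI) was sampled at 1 week and 1 month, each with a sham of the MI series, and an infusion of angiotensin II (Ang II) at 2.0 mg/kg/day was sampled at 1 week with a saline control carried by an osmotic minipump. The text on the whole study describes a coronary occlusion of 30 min that was then released, and it assigns the 1 day harvest to MI, while the array labels name a ligation and assign that day to TAC. The array labels were followed here. No transgene or mutant is named for any group, and whether an array holds 1 ventricle or a pool is not stated. RNA came from ventricular tissue and not from sorted cells, so more cells of a type and more RNA per cell cannot be told apart in any value below.

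Interferons are secreted cytokines that act through receptors, JAK kinases and STAT transcription factors. Type II interferon (interferon-gamma, from T and NK cells) acts mainly on genes with GAS elements, and type I interferons act mainly on genes with ISRE elements. The immunity-related GTPases (Igtp, Iigp1, Irgm1 and Irgm2) and the guanylate-binding proteins (Gbp2 and Gbp3) assemble on the vacuoles of intracellular microbes, with Igtp, Irgm1 and Irgm2 also found on host membranes, and they are best known as strongly interferon-gamma-induced. Ifit1 and Ifit3 are tetratricopeptide proteins that bind foreign RNA or the proteins that sense it, and Isg15 is a ubiquitin-like modifier. These last 3 are classic type I interferon targets.

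The promoters are shown so that the interferon response patterns in them can be read beside the levels. Whether they bear on the levels was not tested. RefSeq promoter windows on GRCm38.p6, from 250 bases before to 50 bases after each annotated start, were available for 8 of the 9 symbols, all but Iigp1, as 9 windows. The 9-letter core of an ISRE, searched as GAAANNGAA on both strands, was found in all 8 genes (8 of 9 windows, the exception being the second window of Gbp3), against 8.56% of 32851 windows of the same length. A GAS pattern, searched as TTCNNNGAA, which reads the same on both strands, was found only in Igtp and Irgm2 among the 8, against 8.3% of all windows. Both patterns together were in those same windows and in 1.07% of all windows. No position was shared between matches of the different patterns, and neighbouring ISRE matches overlap in several promoters. A match is a description of letters, not of a bound site. The stretches below lie upstream of the start site of their own window, and capitals mark the matches to either pattern. A gene can have further starts: the RefSeq gene span begins within the Gbp3 stretch, at 142560016, and upstream of the Ifit3 stretch, at 34583119, so the Ifit3 stretch lies inside the annotated gene and is not printed. The other 6 lie outside the gene span.
Igtp: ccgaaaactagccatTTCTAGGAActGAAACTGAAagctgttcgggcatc
Irgm2: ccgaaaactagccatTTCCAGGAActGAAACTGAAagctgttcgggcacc
Irgm1: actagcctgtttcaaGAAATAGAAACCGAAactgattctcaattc
Gbp2: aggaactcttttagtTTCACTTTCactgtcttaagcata
Gbp3: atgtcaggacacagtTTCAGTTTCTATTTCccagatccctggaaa
Ifit1: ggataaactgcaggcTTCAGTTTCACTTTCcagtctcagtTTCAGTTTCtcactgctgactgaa
Isg15: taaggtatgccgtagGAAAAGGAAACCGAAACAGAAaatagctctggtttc

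In Igtp the stretch is chr11:58199496-58199545 on the plus strand, from -60 to -11 of the window's start site, and in Irgm2 it is chr11:58214887-58214936 on the plus strand, from -90 to -41. Both carry the GAS pattern ahead of a single ISRE core. With the windows laid side by side at the GAS match without gaps, they hold the same base at 184 of 270 positions (68.1%). Such a comparison does not allow for inserted or deleted bases, so it can understate how alike the windows are. The Irgm1 stretch is chr11:48871421-48871465 on the minus strand, from -45 to -1, with 2 overlapping ISRE cores. In Gbp2 (chr3:142620590-142620628, plus, from -73 to -35) there is 1 core and in Gbp3 (chr3:142559985-142560029, plus, from -59 to -15) there are 2. The 3 antiviral promoters each hold 3 cores, in Ifit1 at chr19:34640765-34640828 (plus, from -124 to -61), in Ifit3 at chr19:34583359-34583450 (plus, from -170 to -79) and in Isg15 at chr4:156200861-156200911 (minus, from -93 to -43). The 5 GTPases with a window thus hold 1 or 2 cores in these windows and the antiviral genes 3.

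Signals are linear array intensities scaled to one trimmed mean, and levels are compared between arrays for one gene and not between genes. Before scaling, trimmed means ranged from 105 to 131, so that scaling factors stayed between 0.872 and 1.09. The 3′ to 5′ signal ratio of beta-actin lay between 1.18 and 1.33 and that of Gapdh between 0.790 and 0.854 over the 12 arrays. All 12 cardiomyocyte markers were measured, with a summed signal from 102400 to 129900.

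Igtp, a regulatory GTPase of host membranes, differed greatly between arrays. At 1 day its signal was 149.5 after TAC and 169 in the sham. At 1 week it was 1411 after TAC and 1146 in the TAC sham, 152 after MI and 1630 in the MI sham, and 232 under Ang II and 228 in the saline control. At 1 month it was 635 after TAC and 625 in the TAC sham, and 564 after MI and 729 in the MI sham. On 3 arrays the signal was high, TAC and both shams of the surgical series at 1 week, and the MI array at 1 week stood as low as the 1 day arrays. The control arrays alone spanned 9.65-fold, from the TAC sham at 1 day to the MI sham at 1 week, and its SD over the 6 controls ranked 39 among 11624 genes. That the MI sham at 1 week was high was known before these genes were followed, so this rank is a description only.

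Iigp1, an effector GTPase that disrupts microbial vacuoles, took the same shape. Its signal at 1 day was 269.6 after TAC and 300.1 in the sham. At 1 week it was 3093 after TAC and 2358 in its sham, 361 after MI and 3016 in its sham, and 527 under Ang II and 578 in the control. At 1 month the values were 1516 and 1192 for TAC and its sham, and 1175 and 1404 for MI and its sham. The controls spanned 10.05-fold. A second, dimmer probe set of Iigp1 gave 134 after MI and 1171 in the MI sham at 1 week, with a fold of 11.3 between its highest and lowest arrays against 11.5 for the brightest one.

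Irgm2, a regulator of the effector GTPases, read 49.4 and 72.8 at 1 day (TAC, sham). At 1 week it read 451 and 426 for TAC and its sham, 73.0 and 585 for MI and its sham, and 76.6 and 86.8 for Ang II and its control. At 1 month it read 243 and 179 for TAC and its sham, and 195 and 263 for MI and its sham. The order of arrays repeated that of Igtp at the extremes, with a control span of 8.04-fold.

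Irgm1, a regulator linked to autophagy, read 68.8 after TAC and 117 in the sham at 1 day. The 1 week values were 733 and 375 for TAC and its sham, 128 and 511 for MI and its sham, and 171 and 170.4 for Ang II and its control. At 1 month they were 307 and 264 for TAC and its sham, and 261 and 308 for MI and its sham. TAC at 1 week was the only procedure array above all 6 controls for this gene, and the controls spanned 4.38-fold.

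The guanylate-binding proteins varied less than the 4 immunity-related GTPases. Gbp2 read 89.1 and 129 at 1 day, 422 and 314 at 1 week for TAC and its sham, and 148.5 and 433 for MI and its sham. Under Ang II it read 194 and in its control 152, and at 1 month it read 268 and 230.1 for TAC and its sham and 297 and 281 for MI and its sham. Gbp3 read 46.8 and 70.8 at 1 day, 245 and 179 at 1 week for TAC and its sham, and 81.4 and 269 for MI and its sham. The Ang II pair was the exception in shape: Gbp3 read 93.1 under Ang II and 180.1 in the saline control, so that here the saline control was close to the TAC sham. At 1 month Gbp3 lay between 144 and 173 on all 4 arrays. The controls spanned 3.37-fold for Gbp2 and 3.79-fold for Gbp3, and the second Gbp2 probe set also had the MI array at 1 week (128.5) below its sham (389.8). For Ang II the Gbp2 probe sets disagreed, since the second one read 110 under Ang II and 134 in the control.

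**Figure D1:**
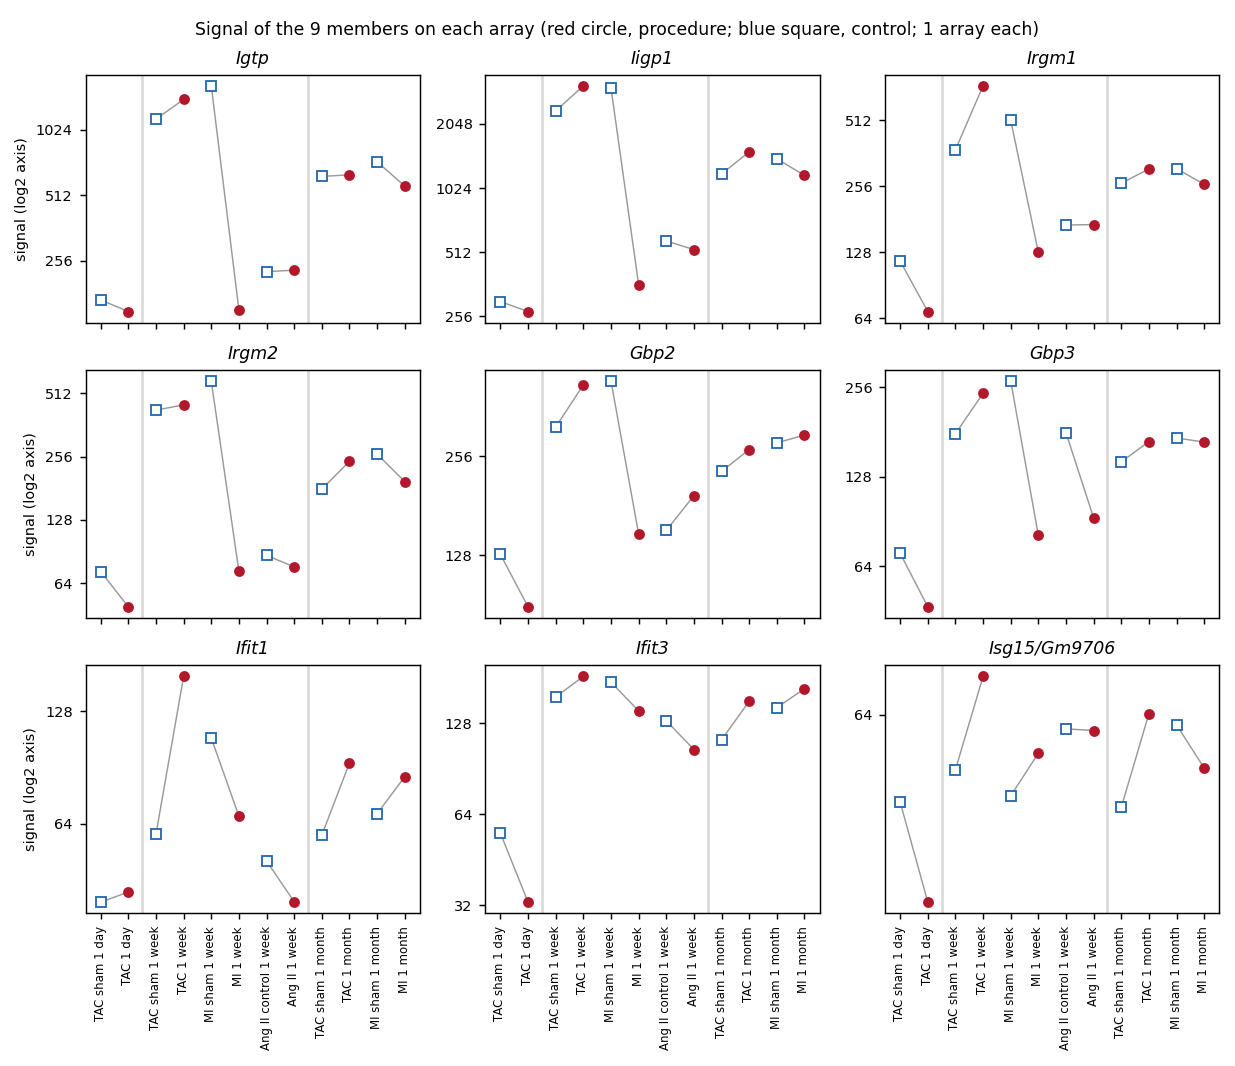
Signal of each of the 9 members (vertical axis, log2 scale) on the 12 arrays grouped by time; red circles are procedure arrays, blue squares are controls, and grey lines join a procedure to its own control. For the 6 GTPases the MI sham at 1 week is high and the MI array is low (Igtp 1630 and 152), while Isg15/Gm9706 stays between 37.7 and 71.3.

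The antiviral genes differed among themselves in range, with 4.03-fold between the highest and lowest of the 12 arrays for Ifit1, 5.58-fold for Ifit3 and 1.89-fold for Isg15/Gm9706, against 4.86-fold for Gbp2, 5.74-fold for Gbp3 and 10.7-fold or more for the 4 immunity-related GTPases. Ifit1 read 41.9 after TAC and 39.4 in the sham at 1 day. At 1 week it read 159 and 60.0 for TAC and its sham, 67.0 and 108.5 for MI and its sham, and 39.5 and 50.8 for Ang II and its control. At 1 month it read 93.0 and 59.6 for TAC and its sham, and 85.5 and 68.0 for MI and its sham. TAC at 1 week stood alone above every control for Ifit1, whose controls spanned 2.755-fold.

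Ifit3, the partner of Ifit1, read 32.8 and 55.4 at 1 day. At 1 week it read 183 and 157 for TAC and its sham, 141 and 175 for MI and its sham, and 105 and 131 for Ang II and its control. At 1 month it read 151 and 113 for TAC and its sham, and 167 and 144 for MI and its sham. Its lowest values were the 1 day pair, and the MI array at 1 week lay within the range of the controls. Isg15/Gm9706 lay between 37.7 (TAC at 1 day) and 71.3 (TAC at 1 week) on all 12 arrays. Its controls spanned 1.26-fold, below the 1.5-fold median of all genes tested.

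Arrays were ordered by the mean of the 6 GTPases' log2 levels, each centred on its own mean over 12 arrays. The MI sham at 1 week (1.40 ± 0.41, SD over 6 GTPases) and TAC at 1 week (1.36 ± 0.38) came first. Of the 6 GTPases, 4 were lower on that TAC array than on the MI sham. The TAC sham at 1 week followed at 0.93 ± 0.45, with all 6 GTPases lower than on the TAC array. The 4 arrays of 1 month came next, between 0.20 and 0.50, with neighbour gaps of at most 0.16. The Ang II control (-0.54 ± 0.52) and the Ang II array (-0.69 ± 0.35) differed by 0.15, with 3 of the 6 GTPases lower on the Ang II array. MI at 1 week (-1.06 ± 0.40) and the TAC sham at 1 day (-1.17 ± 0.33) differed by 0.11, with 5 of the 6 lower on that sham. TAC at 1 day was last at -1.64 ± 0.19, with all 6 GTPases lower than in its sham. The SD here is over genes and not over animals, so it does not measure whether 2 arrays differ.

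Read against their own controls, as log2 ratios of procedure over control, the GTPases were lower in MI at 1 week than in its sham in all 6 members, with a median of -2.50 and a range from -3.42 (Igtp, 10.7-fold lower) to -1.54 (Gbp2). All 6 passed 2-fold, a size that 2.03% of genes tested reached in that direction in that pair. The MI sham at 1 week was known beforehand to be high, so this count describes the pair and is not an independent finding. The 3 antiviral genes gave a median of -0.31 there, from -0.70 (Ifit1) to 0.17 (Isg15/Gm9706), and none of them reached 2-fold. One array stands on each side of this comparison, so no test of the difference between the sets was possible.

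In the TAC series the ratios were smaller. At 1 day all 6 GTPases were lower than in the sham (median -0.54, from -0.76 to -0.155), beside an antiviral median of -0.41, with none of the 9 members at 2-fold, in a pair where 14.8% of genes differed 2-fold in either direction. At 1 week all 6 were higher (median 0.41, Irgm1 highest at 0.97), beside an antiviral median of 0.38, and Ifit1 was the only member 2-fold higher, at 1.40, a size that 3.33% of genes tested reached. At 1 month all 6 were higher again by a median of 0.22, with none of the 9 members at 2-fold (5.14% of genes in either direction), and the antiviral median was 0.42. MI at 1 month gave medians of -0.25 and 0.21 for the GTPases and the antiviral genes, with no member at 2-fold (5.33% of genes). Ang II gave -0.06 and -0.32, also with none at 2-fold (3.55% of genes), Gbp3 being nearest at -0.95.

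The MI ratio at 1 week depended on the control. Against the TAC sham of the same time the GTPase median was -2.05 and all 6 stayed 2-fold lower (2.89% of genes), with an antiviral median of 0.07. Against the Ang II control the GTPase median was -0.50, from -1.15 to -0.03, and 1 member (Gbp3) was 2-fold lower (3.29% of genes). For TAC at 1 week the GTPase median was 0.41 against its own sham, -0.09 against the MI sham and 2.24 against the Ang II control. The Ang II median went from -0.06 against its own control to -1.65 against the TAC sham and -2.05 against the MI sham. These comparisons share arrays, so the values are given side by side only.

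Controls differed from one another as well. The GTPases were higher in the MI sham than in the Ang II control at 1 week by a median of 1.98 (Igtp 7.15-fold), and 6 members, 5 of them GTPases together with Ifit1, were 2-fold higher, where 2.06% of genes were. In the TAC sham they were higher by a median of 1.58, and 5 members were 2-fold higher, where 3.23% of genes were. Between the TAC and MI shams the medians were -0.46 at 1 week and -0.25 at 1 month (TAC sham minus MI sham). The Ang II control received a saline infusion and the others a sham operation on the aorta or the pericardium, so series and kind of control cannot be told apart. The high level of the MI sham at 1 week was known before these controls were compared.

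**Figure D2:**
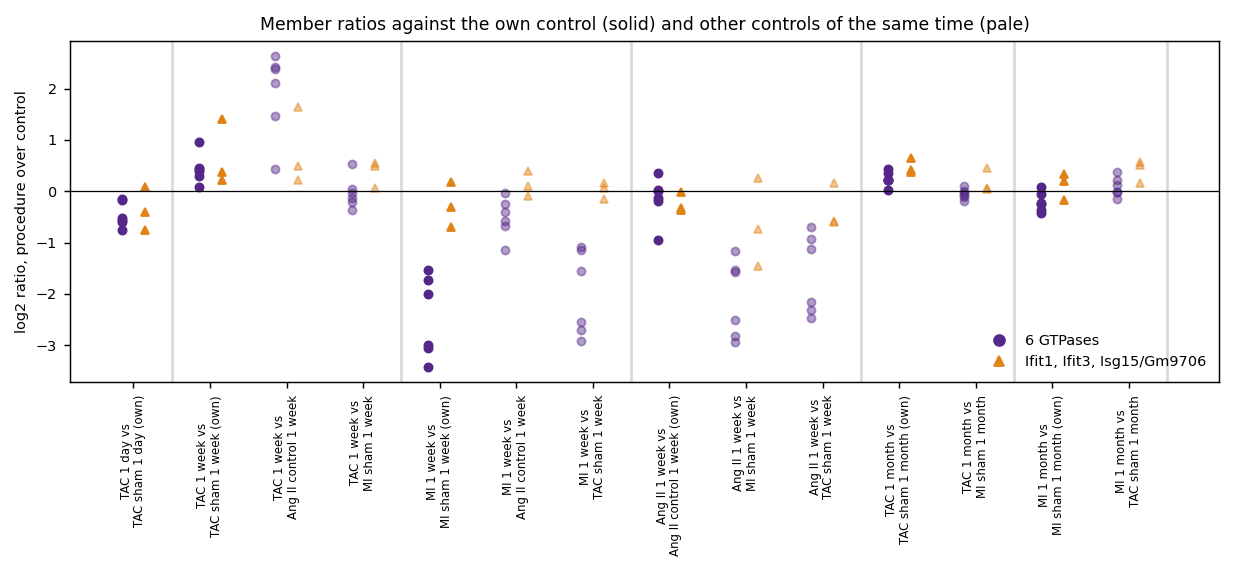
Log2 ratio of each procedure array to its own control (solid) and to other controls of the same time (pale), with the 6 GTPases as purple circles and the 3 antiviral genes as orange triangles. The GTPase points of MI at 1 week sit near -2.50 and -2.05 against the 2 surgical shams and near -0.50 against the Ang II control.

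Across the 6 pairs no member passed the test. In limma's fit with the pair as a block and Benjamini-Hochberg adjustment at 0.05, 0 of the 9 members passed, against 5.16% of all genes higher and 5.70% lower, and 0 of 9 had an unadjusted p under 0.05. On the log2 scale Igtp had a mean change of -0.60 ± 0.41 (SE, n = 6 pairs, limma adjusted p = 0.360), Irgm2 of -0.61 ± 0.36 (adjusted p = 0.297) and Ifit1 of 0.23 ± 0.24 (adjusted p = 0.565). The remaining 6 had mean changes from -0.48 (Iigp1) to 0.06 (Isg15/Gm9706), with adjusted p from 0.273 to 0.840. Over all genes 1262 passed, but that count was 267 without the TAC pair at 1 week, 295 without the TAC pair at 1 month, 256 without the MI pair at 1 week and 292 without the MI pair at 1 month. Without the MI pair at 1 week the mean change was -0.04 for Igtp, 0.04 for Iigp1, 0.04 for Irgm1, -0.13 for Irgm2, 0.11 for Gbp2 and -0.18 for Gbp3, and that of Ifit1 was 0.42. Without the TAC pair at 1 week that of Ifit1 was 0.00050, and without the TAC pair at 1 month 0.15.

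Fitted by model, the MI mean (2 pairs) of Igtp was -1.90 ± 0.56 (limma adjusted p = 0.150) and that of Irgm2 -1.72 ± 0.51 (adjusted p = 0.154). These means join unlike ratios and describe neither time. The ratio of Igtp was -3.42 at 1 week and -0.37 at 1 month, and that of Irgm2 was -3.00 and -0.43. No member passed, where 0.155% of genes passed as lower, and 4 members (Igtp, Iigp1, Irgm1 and Irgm2) had an unadjusted p under 0.05, as did 2005 of the 11624 genes. The TAC mean (3 pairs) of Ifit1 was 0.71 ± 0.30 (limma adjusted p = 0.220), and 0 of 9 members passed, where 1.08% of genes passed as higher. For TAC minus MI, 0% of genes passed in either direction, 527 had an unadjusted p under 0.05, and these included 3 members. Igtp gave 1.95 ± 0.73 and Ifit3 0.02 ± 0.38 (limma adjusted p = 0.983 and 1.00). This fit leaves 3 residual degrees of freedom.

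The genes whose 12 centred log2 levels lay nearest to the GTPase mean profile, by root mean square distance, were Gbp7 (0.23), Gbp2b (0.25), Psmb9 (0.33), Cd274 (0.36), Nlrc5 (0.41) and Tap1 (0.43), where the median gene tested lay at 1.00. Gbp7 and Gbp2b are further guanylate-binding proteins. Psmb9 is an immunoproteasome subunit, Tap1 a peptide transporter, Nlrc5 a transactivator of MHC class I genes and Cd274 the PD-1 ligand. Gbp7 read 165 after MI and 626 in the sham at 1 week, and Psmb9 read 106 and 263. Ifit1 (0.60), Ifit3 (0.59) and Isg15/Gm9706 (0.88) were farther from that profile, but these 6 genes were picked as the nearest, so this is no contrast. Gbp2 (0.34) and Gbp3 (0.39), which are part of the GTPase profile, lay about as near to the mean profile of the 3 antiviral genes (0.35 and 0.40). The other GTPases lay farther from the antiviral profile, from 0.56 (Irgm1) to 0.93 (Igtp). Nearest to the antiviral mean profile were Zfp367 (0.16), Parp14 (0.18), Parp9 (0.19), Oas1a (0.19), Atrx (0.20) and Oasl2 (0.20), against a median of 0.53. Parp9, Parp14, Oas1a and Oasl2 are known interferon-induced genes, Atrx is a chromatin remodeller and Zfp367 a zinc-finger protein. The distances use all 12 arrays and carry no test.

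**Figure D3:**
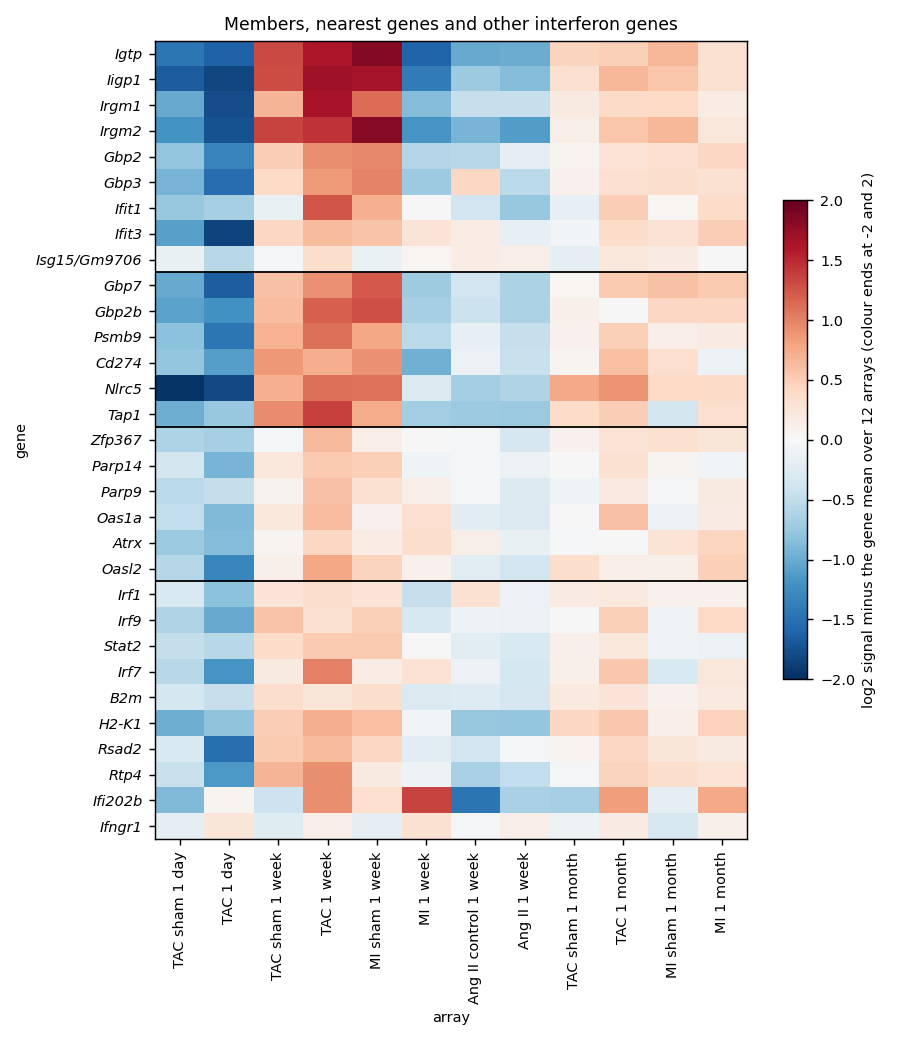
Log2 signal minus the gene's mean over 12 arrays (colour, ending at -2 and 2) for the 9 members, the 6 genes nearest to the GTPase profile, the 6 nearest to the antiviral profile and 10 other genes of the interferon pathway, by array. Igtp and its neighbours are red on TAC, TAC sham and MI sham at 1 week and blue at 1 day, whereas Ifi202b is red on MI at 1 week.

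Among further GTPases, 4 of 15 listed were tested. For the mean change over 6 pairs, 0 of 4 passed in either direction in limma (0 at an unadjusted p under 0.05). In MI at 1 week their median was -1.94, and 3 of 4 were at least 2-fold lower, where 2.03% of genes tested were. Gbp6 read 306 after MI and 1441 in the sham. Its lowest value was TAC at 1 day (96.1, against 640 in the sham, a log2 ratio of -2.74, the largest of the list). Of 16 tested genes of the interferon-gamma and antigen presentation list, 0 rose over the pairs (5.16% of all genes) and 1 fell (5.70% of all genes). This was Psme1, a proteasome activator (-0.31 ± 0.08, limma adjusted p = 0.0353), whose adjusted p was 0.0960 without the TAC pair at 1 week, 0.0738 without TAC at 1 month, 0.103 without MI at 1 week and 0.0999 without MI at 1 month. In MI at 1 week 6 of the 16 were 2-fold lower, where 2.03% of genes tested were. The list median was -0.69, and the all-gene median was 0.01. Cd274 read 30.8 and 114 on the MI array and its sham at that time, and Cxcl9, an interferon-gamma-induced chemokine, read 15.9 and 55.0. At 1 month Cxcl9 was instead higher after MI (62.8) than in the sham (26.5). Its largest ratio was 2.07 in TAC at 1 day (19.0, against a sham at the floor of the scale). Its mean change was 0.35 ± 0.43 (limma adjusted p = 0.629). Cxcl10 was higher on the MI array at 1 week (44.7) than on its sham (33.3), with a mean change of 0.37 ± 0.31 (limma adjusted p = 0.481).

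Of 31 further antiviral genes tested, 2 rose and 0 fell over the 6 pairs, a share near the 5.16% of all genes called higher (median mean change 0.08, where the all-gene median was -0.0038). Ifi202b, a DNA-binding protein of the interferon-inducible p200 family, rose by 1.09 ± 0.13 (limma adjusted p = 0.00327, n = 6 pairs). It was higher in every pair: it read 89.15 and 46.35 for TAC and sham at 1 day, 163 and 64.6 at 1 week and 152.5 and 54.05 at 1 month. For MI and sham it read 219 and 108 at 1 week and 145 and 76.1 at 1 month, and for Ang II and its control 54.5 and 31.3. Ifitm2, a membrane protein that restricts viral entry, rose by 0.40 ± 0.07 (limma adjusted p = 0.0108) and was higher in 6 of 6 pairs. Both passed under each of the 6 fits that leave out 1 pair. Ifi202b missed the threshold under 4 of 16 alternatives (adjusted p up to 0.0696) and Ifitm2 under 3 (up to 0.0657), among them, for both, the fit without the filter on dim genes. Zbp1, a nucleic acid sensor, was at the floor of the scale in the TAC sham at 1 day and read 27.0 after TAC, with a mean change of 0.79 ± 0.35 (limma adjusted p = 0.163). Ifi204 had a mean change of 0.47 ± 0.30 (limma adjusted p = 0.337). In MI at 1 week this list's median was -0.25, and 0 of 31 were 2-fold lower, where 2.03% of genes tested were.

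Ligand transcripts were at the low end. Only Il18, of 8 with a probe set, passed the filter on dim genes, with a mean change of 0.20 ± 0.27 (limma adjusted p = 0.674). Ifnb1 lay between 9.55 and 25.2 on the 12 arrays, Ifna1 between 4.54 and 27.8, Ifna2 between 4.54 and 12.3 and Ifna4 between 4.54 and 5.25. The interleukin-12 genes Il12a and Il12b lay between 4.54 and 33.7 and between 4.54 and 28.4. Ifng, the interferon-gamma gene, was between 4.54, which is the floor, and 13.8 on all 12 arrays, and 10.3 on the MI sham at 1 week. Of the 6 receptor chains tested, 1 rose (5.16% of all genes did). It was Ifngr1, the ligand-binding chain of the interferon-gamma receptor, at 0.36 ± 0.08 (limma adjusted p = 0.0270), with adjusted p of 0.0773, 0.0660, 0.0884 and 0.0870 without the TAC pair at 1 week, TAC at 1 month, MI at 1 week and MI at 1 month. Ifnar1 (0.24), Ifnar2 (0.26), Ifngr2 (-0.24), Ifnlr1 (0.22) and Il10rb (-0.39) did not pass.

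Of 11 JAK, STAT and IRF genes tested, 0 passed in either direction in limma, and 4 had an unadjusted p under 0.05. In MI at 1 week the list median was 0.14, and 3 of the 11 were lower than in the sham. These were Irf1, an interferon-gamma-induced transcription factor (213.5 after MI and 353 in the sham), Irf9 (95.9 and 166) and Stat2 (88.2 and 128). Among the others, Irf8 read 149.8 and 76.5 and Irf5 read 64.4 and 28.5. Irf7, which amplifies type I responses, read 177 in TAC and 99.45 in its sham at 1 week. The mean changes of Irf5 and Irf8 were 0.56 and 0.47, and those of Jak1, Jak2, Tyk2, Irf2 and Irf3 lay between -0.17 and 0.24. Of 9 nucleic acid sensors and adaptors tested, 1 rose (5.16% of all genes did). Sting1, the adaptor of cytosolic DNA sensing, rose by 0.65 ± 0.18 (limma adjusted p = 0.0489) and lost its call without any 1 of the 6 pairs, with adjusted p from 0.0521 (without TAC at 1 month) to 0.136 (without MI at 1 month). Mavs (-0.55) and Myd88 (0.43) did not pass. Tlr9 gave its largest ratio in TAC at 1 day (-2.24), where the TAC array was at the floor of the scale (4.54, against 21.4 in the sham). Of 7 genes tested from a list of interferon signalling inhibitors, which also holds the antiviral gene Isg20, 0 passed in limma. An unadjusted p under 0.05 was reached by 2. Socs3 had the largest mean change, 1.01 ± 0.37 (limma adjusted p = 0.107), and read 286 after MI and 64.8 in the sham at 1 week, while Ptpn6 and Ptpn2 had mean changes of 0.50 and 0.21. Of the 5 genes of ISG15 conjugation and removal tested, 0 passed in limma and 0 had an unadjusted p under 0.05, among them Uba7 (-0.11), Usp18 (0.08) and Trim25 (-0.07). Herc6 gave the list's largest pair ratio, 0.95 in TAC at 1 week.

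Markers of immune cells did not follow one pattern. The 14 macrophage markers summed to 14750 on the MI array at 1 week and 5892 on its sham, the reverse of the GTPases, and over the 12 arrays the sum ran from 4116 to 14750. Of these, 8 of 14 rose over the pairs, where 5.16% of all genes did. Fcgr1 rose by 1.13 (limma adjusted p = 0.0161), and Cd68 had a mean change of 1.04 (limma adjusted p = 0.0565). The 13 T and NK cell markers with a probe set summed to 162 on MI at 1 week and 170 on its sham, with a range from 140.5 (TAC sham at 1 day) to 291 (TAC at 1 week). Of those 13, 10 were too dim to test, Cd3e, Cd3d and Cd3g among them. Of the 3 tested, 1 rose (5.16% of all genes did), Ms4a4b by 0.90 (limma adjusted p = 0.0412). Its limma adjusted p was 0.0675, 0.106, 0.0833, 0.110 and 0.102 without TAC at 1 day, 1 week or 1 month or MI at 1 week or 1 month. Gzma had a mean change of 0.42 ± 0.29 (limma adjusted p = 0.380). In MI at 1 week the 3 tested markers moved in different directions under the near-equal sums. Ms4a4b read 25.3 on the MI array and 10.7 on its sham, Prf1 38.5 and 33.2, and Gzma 16.0 and 30.8. The 7 dendritic cell markers summed to 190.1 on MI and 219 on its sham at 1 week, with a range from 93.6 to 219. The part of any cell type in the GTPase levels was not tested.

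The other marker lists are given as counts over the 6 pairs. Of 5 tested neutrophil markers 0 passed in limma (1 at an unadjusted p under 0.05), with sums from 105 to 1569 that peaked in TAC at 1 day, and S100a9 had a mean change of 1.67 (limma adjusted p = 0.0622). Of 10 fibroblast markers 6 rose (5.16% of all genes did), Col1a1 by 1.82 and Mfap5 by 1.66, with sums from 20310 to 44640. Of 12 cardiomyocyte markers 2 fell, Ryr2 with a change of -0.31 and Pln of -0.23, and of 12 endothelial markers 1 fell, Flt1 with -0.44. Of all genes 5.70% fell. In limma 0 passed of 2 B cell, 3 dendritic cell, 2 lung, 1 thymus and 2 erythroid markers tested, with 1 dendritic cell marker at an unadjusted p under 0.05.

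**Figure D4:**
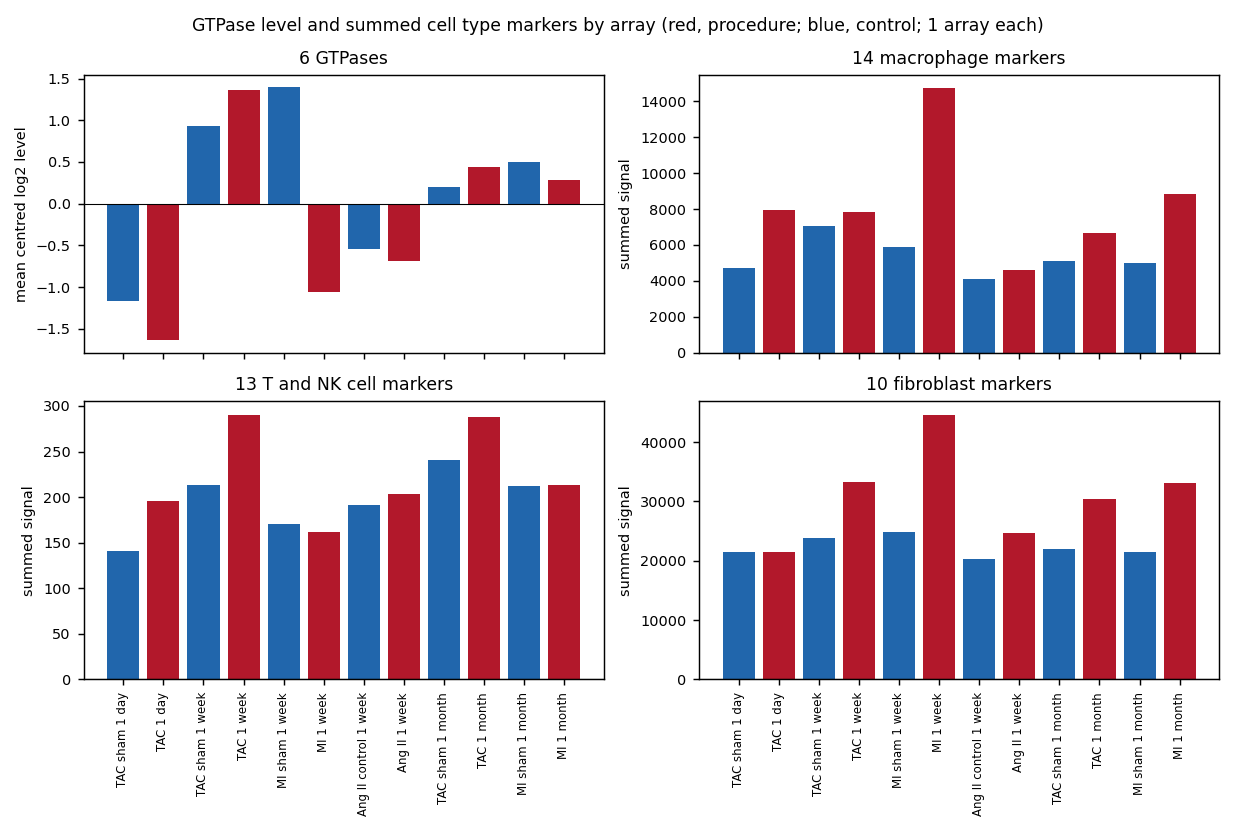
Mean centred log2 level of the 6 GTPases and summed signals of macrophage, T and NK cell and fibroblast markers on each array (bars; red procedure, blue control; 1 array each, no error). The GTPase bar of MI at 1 week is low (-1.06) where the macrophage bar is the highest (14750).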

How the data were processed

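The authors deposited linear intensity values, 1 per probe set on an array. GCOS is the tool in the submitters' processing notes. Its version, algorithm and scaling are not stated in those notes or in the labels. Each array was scaled to a common 2% trimmed mean, because the trimmed means differed by more than 5%. Values under the 20th percentile (4.54) were set to that percentile before log2. Of 45101 probe sets, 34958 are listed with 1 gene symbol, 932 with several and 9211 with none here. The brightest probe set stood for a gene. Tests covered the 11624 genes whose mean log2 exceeded that of 40% of probe sets with 1 symbol, a signal of 18.1. Isg15/Gm9706 is an exception, a probe set of 2 symbols.

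Each procedure was paired with the control of its own series and time, taken from the sample titles. limma 3.58.1 in R 4.3.3 was used with the pair as block (a fixed term of the model), an intensity trend and Benjamini-Hochberg adjustment at 0.05. Single pairs have 1 array a group and carry no test. A 2-fold difference means a log2 ratio of at least 1 in size. The p-values rest on how the ratios vary between pairs, which differ in time and, in the fit over 6 pairs, in procedure as well. That spread therefore includes differences between models and times. Since separate animals are not stated, technical spread and spread between animals cannot be told apart within it. The fit was tested on simulated data. The number of arrays limits the precision. Besides the members, the text names, of each list, the 3 genes with the largest mean change in size and the gene with the largest ratio in a pair, ligands, receptors and JAK, STAT and IRF genes, the 6 genes nearest to each profile and up to 2 markers of each cell type; other genes named were chosen after their values were seen. Members and lists were chosen with earlier results of these data known, among them that the MI sham at 1 week was high. Alternatives covered scaling, floor, probe set choice, dim filter, variance trend, block, controls and leaving out each pair.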

Additional observations from a re-analysis of the deposited data

How the results depend on the processing

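No member passed the threshold as reported or under any of the 16 alternatives (144 values, smallest adjusted p = 0.171, limma). The number of genes called over the 6 pairs, 1262, was less stable: 800 with the signals as deposited, 694 with the mean of all probe sets of a gene, 0 without the filter on dim genes, 241 without the intensity trend, 748 with time as the block and 473 with no replicate block, that is, unpaired; without a pair it ranged from 256 to 1485. An alternative added after seeing the data, time as block without the MI sham at 1 week, gave 343 genes. Without the dim filter 18195 genes were tested with limma, 3703 had an unadjusted p under 0.05 and the smallest adjusted p was 0.0589. Mean changes of members that changed sign were Ifit3 at 0.0071 with the signals as deposited and Isg15/Gm9706 at -0.0010 after quantile normalization. Leaving out 1 pair gave ranges of -0.19 to 0.044 for Ifit3, -0.0075 to 0.15 for Isg15/Gm9706, -0.65 to 0.039 for Iigp1, -0.56 to 0.038 for Irgm1 and -0.28 to 0.11 for Gbp2.

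Pair medians moved with the control. The GTPase median of TAC at 1 week was 0.80 against the mean of the same-time controls, -0.086 against the MI sham and 2.24 against the Ang II control; that of MI at 1 week was -1.63 against the mean and -0.50 against the Ang II control; and that of Ang II was -1.37, -1.65 and -2.05 against the mean, the TAC sham and the MI sham. At 1 month the TAC median was 0.54 with the signals as deposited and -0.054 against the MI sham, and the MI median was 0.051 against the TAC sham. Antiviral medians of TAC at 1 month were 0.74 as deposited, 0.25 against the mean and 0.069 against the MI sham, that of MI at 1 month was 0.52 against the TAC sham, and those of Ang II were -0.55, -0.58 and -0.74 against the mean, the TAC sham and the MI sham. The signals as deposited shift the median of all genes in a pair, by 0.32 in TAC at 1 month, 0.21 in TAC at 1 week, 0.16 in MI at 1 week and -0.15 in TAC at 1 day, and every GTPase and antiviral pair median kept its sign with them and after quantile normalization. The causes of the other movements were not tested. Over the 16 alternatives Ifi202b kept its call in 12, Ifitm2 in 13, Ifngr1 in 9, Psme1 in 6 and Sting1 in 5, and Ms4a4b kept its call in 6 of the 15 in which it was tested.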
